A study of Mus musculus with 7 samples.

Results

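Interferon-high T and NK cells are lymphocytes that carry transcripts of several antiviral genes at the same time. They were taken here from single-cell RNA profiles of mouse liver with hepatocellular carcinoma, as barcodes with at least 500 UMIs (unique molecular identifiers, each standing for a captured transcript), at least 200 genes, under 20% mitochondrial UMIs, a UMI of Cd3d, Cd3e, Cd3g or Ncr1, and no UMI of Csf1r or Cd79a. Among the 25942 T and NK barcodes that this gate kept, members were chosen by at least 3 of 6 interferon-induced genes, namely Ifit1, Ifit3, Isg15, Rsad2, Usp18 and Oasl2. This gave 338 members among 62304 barcodes that passed the cell filter, and 21162 T and NK barcodes with none of the 6 genes served for comparison. The 6 genes chose the members, so their levels are a description and carry no test. No cell annotation was used, and the name follows from the rule.

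Tumours had been started by injecting plasmids for Nras and C-myc into the tail vein under pressure, a route that brings DNA mainly into hepatocytes. All 7 samples carried these oncogenes, and 4 of them had in addition received a plasmid for IL-2/CD25. The 3 samples without it are called control and the 4 with it treated. Livers were collected 2 weeks after injection and the labels call the material of every sample HCC tissue. Strain, sex, age and plasmid promoters are not stated in the sources used here. The labels do not say whether each sample is a separate animal, so p-values measure the spread between these samples, which may be technical.

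Interferons are secreted proteins that warn cells of infection or damage. Type I interferons signal through Ifnar1 and Ifnar2 to transcription factors that include Stat2 and Irf9, which bind a short promoter element and switch on genes that block viral replication, while interferon-gamma, made by T and NK cells themselves, acts through Ifngr1 and Ifngr2. Both routes raise overlapping sets of genes. Among the genes of the rule, Ifit1 and Ifit3 encode RNA-binding proteins that hinder viral translation, Isg15 a ubiquitin-like modifier, Rsad2 the radical-SAM enzyme viperin, Usp18 the protease that removes Isg15 and dampens receptor signalling, and Oasl2 a relative of the oligoadenylate synthetases.

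Promoter stretches of 4 genes of the rule and of 3 genes that stood high in the members are shown because they hold the letters TTTCNNTTTC, the core of the interferon-stimulated response element, on either strand. They come from RefSeq on GRCm38.p6, and the build behind the counts is not known here, read 5′ to 3′ along the gene, and the capitals mark the motif or its reverse complement.
Ifit1, chr19:34640764-34640853, plus strand: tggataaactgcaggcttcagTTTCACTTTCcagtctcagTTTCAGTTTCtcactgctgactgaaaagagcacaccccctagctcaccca
Ifit3, chr19:34583367-34583456, plus strand: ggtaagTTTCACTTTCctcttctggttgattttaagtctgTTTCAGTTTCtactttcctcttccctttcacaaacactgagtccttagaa
Isg15, chr4:156200835-156200924, minus strand: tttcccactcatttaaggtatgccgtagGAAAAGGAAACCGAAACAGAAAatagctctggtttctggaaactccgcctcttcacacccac
Rsad2, chr12:26456523-26456612, minus strand: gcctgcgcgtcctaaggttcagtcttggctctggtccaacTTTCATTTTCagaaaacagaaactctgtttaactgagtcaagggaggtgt
Cxcl10, chr5:92349053-92349139, minus strand: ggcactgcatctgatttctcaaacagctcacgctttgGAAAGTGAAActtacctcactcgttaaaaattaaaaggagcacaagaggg
Gbp2, chr3:142620564-142620653, plus strand: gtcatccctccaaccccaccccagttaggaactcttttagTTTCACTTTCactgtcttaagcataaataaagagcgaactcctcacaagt
Igtp, chr11:58199482-58199571, plus strand: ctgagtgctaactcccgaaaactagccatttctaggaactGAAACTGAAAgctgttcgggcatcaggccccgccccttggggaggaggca

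Ifit1 and Ifit3 held 2 copies each and Isg15 held 3 overlapping copies. In windows from 250 bases before to 50 after the start site, 4 of the 5 rule genes with a window held the motif, against 3.99% of all 27025 genes with a window. It was found for 10 of 21 antiviral effectors, 5 of 7 nucleic acid sensors and 9 of 9 GBP and IRG GTPases, but for 0 of 9 naive and memory genes and 0 of 15 proliferation genes. It was also found for 0 of 3 ISG15 conjugation genes, 1 of 10 signal transduction genes, 1 of 7 interferon regulatory factors and 4 of 15 cytotoxic effectors. A match is a description of letters in this window and says nothing of binding in these cells.

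The T and NK label was checked with a stricter identity, which asks for at least 3 of 20 T and NK markers and more UMIs of these than of 33 markers of other cell types. It was met by 213 of 240 treated members (88.8%), which held 81.3% of the treated members' UMIs. Only 62 of 98 control members (63.3%) met it, and they held 25.9% of the control members' UMIs. Markers of other cell types differed between the groups in both directions. Markers of neutrophils summed to 14998 ± 11982 CPM (a gene's UMIs scaled to the same total in every sum of cells; SD, n = 3, range 7278 to 28801) in control members and 1681 ± 1773 (SD, n = 4, range 251 to 4259) in treated members, and markers of hepatocytes and tumour cells to 3232 ± 2050 (range 986 to 5003) and 80.7 ± 81.5 (range 27.5 to 201). With the strict identity, which uses these markers and so fixes part of the result, these sums were 975 ± 331 and 142 ± 37.2 for neutrophils and 286 ± 266 and 81.7 ± 87.6 for hepatocytes and tumour cells. Monocyte and macrophage markers summed to 505 ± 239 in control and 91.2 ± 40.2 in treated members, dendritic cell markers to 51.0 ± 45.8 and 173 ± 120, and endothelial markers to 0.514 ± 0.890 and 95 ± 88. Of the 5 B and plasma cell markers 3 were at 0 in control members, and both basophil markers were at 0 in treated members, as was Csf1r in all by the rule. Scrublet placed 14 control members (14.3%) and 16 treated members (6.67%) among the likely doublets, against 5.60% and 5.09% of cells with none of the 6 genes. Levels are therefore given for the rule and for the strict identity, and the part of other cells' RNA in the rule's values was not tested.

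Libraries held 7244 to 10439 passing barcodes, with median UMIs per barcode of 6254 to 8724 in controls and 3215 to 4478 in treated samples. Members had a pooled median of 7806 UMIs in controls and 4624 in treated samples, against 4794 and 3884 in T and NK cells with none of the 6 genes. A deeper barcode has more chances to show 3 genes, so shares are also given after every cell was thinned to 2000 UMIs. Of 61843 distinct passing barcodes 459 occurred in more than 1 library, which touched 5 members, and no barcode was a member in 2 libraries.

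The number of cells fell steeply with the number of the 6 genes detected. Cells with 0, 1, 2, 3, 4, 5 and 6 of the genes numbered 1036, 529, 192, 63, 21, 9 and 5 in controls and 20126, 3288, 433, 105, 58, 65 and 12 in treated samples. In the treated samples cells with 5 genes outnumbered those with 4. Members with 5 or 6 genes made up 12.9, 7.14 and 28.0% of members in the controls and 35.5, 43.8, 22.2 and 28.9% in the treated samples, and the groups overlapped. Just below the threshold, strict treated cells with 2 of the genes summed to 2389 ± 309 CPM of 26 other antiviral effectors, and just above it, with 3 genes, to 4036 ± 849 CPM (SD, n = 4). The corresponding control sums were 2044 ± 816 and 3251 ± 1597 CPM (SD, n = 3).

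**Figure D1:**
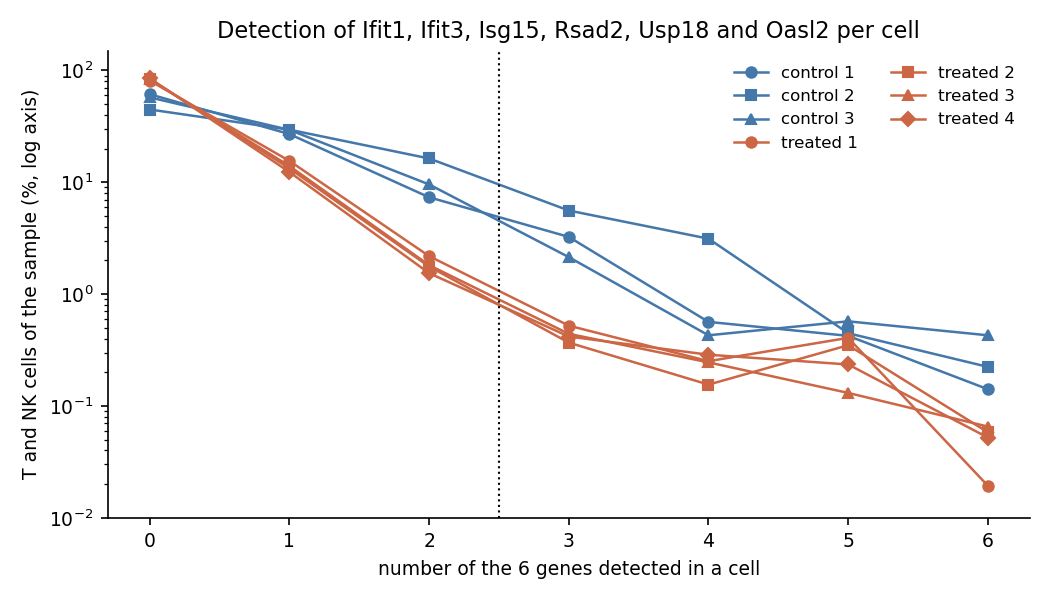
Share of T and NK cells in each sample (%, log axis) by the number of the 6 rule genes detected; blue lines are the 3 controls, orange lines the 4 treated samples, and the dotted line marks the threshold of 3 genes. From 1 to 6 genes the control lines lie above all treated lines, and with 5 genes they come close together.

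**Figure D2:**
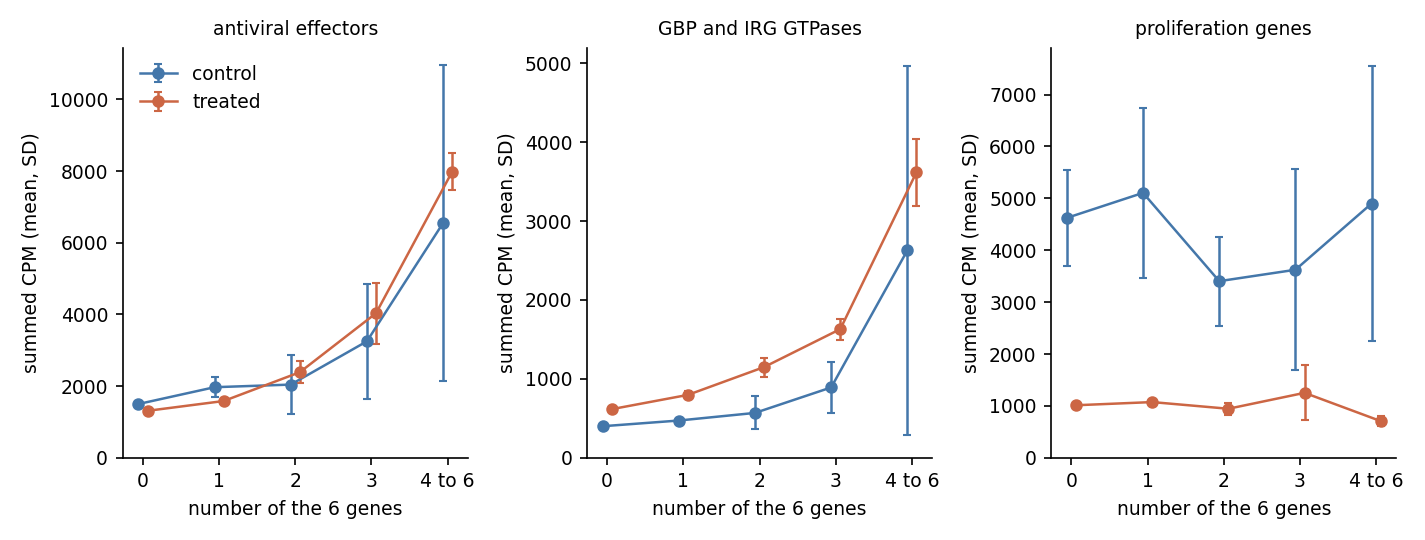
Summed CPM of antiviral effectors, GBP and IRG GTPases and proliferation genes in strict T and NK cells by the number of rule genes detected; points are means over samples and bars SDs (3 controls in blue, 4 treated in orange). Antiviral effectors climb from 1311 to 7988 CPM in the treated samples and from 1501 to 6552 CPM in the controls, with a wide control SD in the last class.

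Isg15 was the most widely detected rule gene, present in 88 of 98 control members and 225 of 240 treated members. Ifit1 followed with 61 control and 203 treated members, and Oasl2 was the rarest in both groups, with 43 and 76. The level of Ifit1 in strict members was 436, 556 and 592 CPM in the controls and 739, 714, 720.5 and 858 CPM in the treated samples. All 4 treated values lay above the controls. Isg15 stood at 741, 462 and 1479 CPM in the controls and 815, 833, 730 and 663 CPM in the treated samples, so the control range enclosed the treated one. Rsad2 was at 270.0, 271 and 269 CPM in controls and 414, 371, 275 and 409 CPM in treated samples. Under the rule the same genes were at 156 ± 121, 275 ± 116 and 105 ± 50 CPM in controls and 649 ± 62.2, 706 ± 115 and 405 ± 56.2 CPM in treated samples.

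The members took a larger share of T and NK cells in the controls than in the treated samples. With all UMIs, 31 of 708 (4.38%, exact 95% interval 2.99 to 6.16%), 42 of 447 (9.40%, 6.86 to 12.5%) and 25 of 700 (3.57%, 2.32 to 5.23%) control T and NK cells were members. In the treated samples 62 of 5165 (1.2%, 0.922 to 1.54%), 48 of 5153 (0.931%, 0.688 to 1.23%), 54 of 6112 (0.884%, 0.664 to 1.15%) and 76 of 7657 (0.993%, 0.783 to 1.24%) were. Every control lay above every treated sample, and control 2 stood highest. The means were 5.78% ± 3.16 (SD, n = 3) and 1.00% ± 0.140 (SD, n = 4), with a two-sided p = 0.0286 in the exact permutation test, the smallest that 3 against 4 samples allow. These intervals cover counting error only.

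After thinning to 2000 UMIs per cell the share was 1.60, 3.68 and 1.73% in the controls and 0.754, 0.530, 0.467 and 0.540% in the treated samples. The groups again did not overlap. The means of 2.33% ± 1.16 and 0.572% ± 0.125 differed 4.08-fold, with an adjusted p = 0.0476 in the exact permutation test (Benjamini-Hochberg over 5 shares). With strict identity the thinned shares were 2.30, 4.11 and 2.57% in controls and 0.690, 0.464, 0.447 and 0.512% in treated samples, a 5.67-fold difference of the means. Gated cells that failed the strict identity had 0, 2.17 and 0.697% in controls and 3.51, 2.47, 1.04 and 1.67% in treated samples. Their groups overlapped, and their means of 0.957% and 2.17% ordered the other way (p = 0.2, exact permutation). They held 0 to 4 thinned members in a sample. With at least 4 of the 6 genes required, the thinned difference over all gated cells shrank to 0.459 percentage points, lower in the treated samples. It no longer passed the exact permutation test (adjusted p = 0.143). Free RNA can also place UMIs of these genes in cells, and no cell type known to lack them was at hand as a blank.

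Outside the T and NK gate the same 3-of-6 criterion gave thinned shares of 0.938, 1.57 and 0.661% in controls and 1.44, 1.16, 0.821 and 1.00% in treated samples. These groups overlapped, with means of 1.06% ± 0.466 and 1.10% ± 0.261. Median depth outside the gate was 6454, 6330 and 8827 UMIs in controls and 3652, 3185, 2850 and 3360 UMIs in treated samples. The T and NK gate held 7.44, 6.15 and 8.08% of passing barcodes in the controls and 71.3, 58.6, 58.5 and 73.7% in the treated samples. Counted over all passing barcodes, members were therefore 0.326, 0.578 and 0.289% in controls and 0.856, 0.546, 0.517 and 0.732% in treated samples, ranges that overlap and whose means order the other way, at 0.398% ± 0.158 and 0.663% ± 0.160. Fewer interferon-high cells and more of the other T and NK cells cannot be told apart in such shares.

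**Figure D3:**
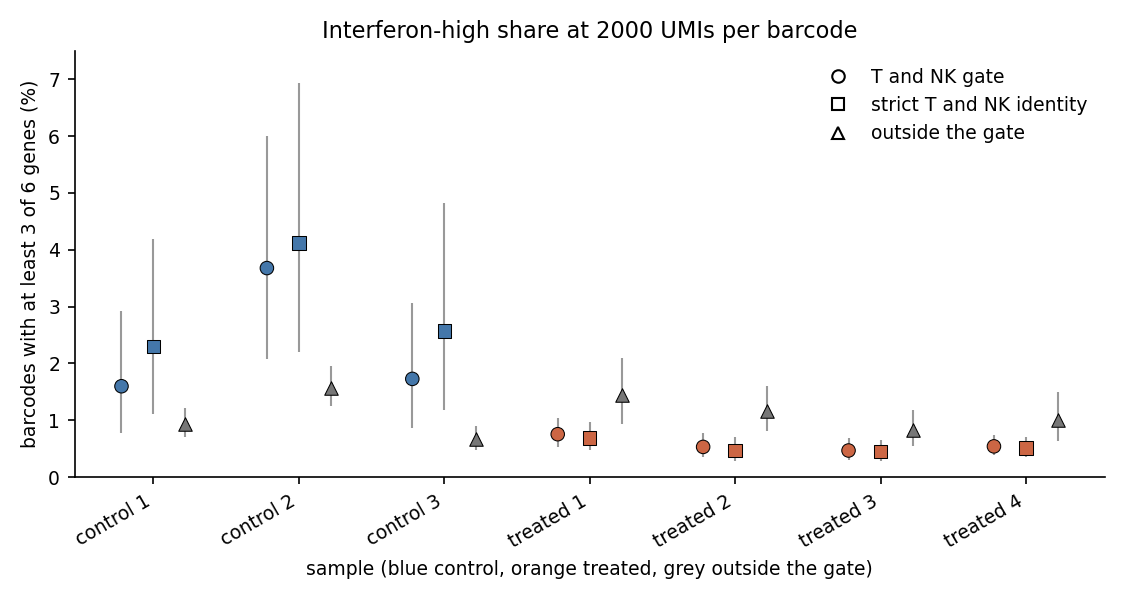
Thinned share of barcodes with at least 3 of the 6 genes (%) in each sample, for the T and NK gate (circles), strict T and NK identity (squares) and barcodes outside the gate (grey triangles); grey bars are exact 95% intervals. The gate's shares run from 1.60 to 3.68% in the 3 controls (blue) and from 0.467 to 0.754% in the 4 treated samples (orange), while those outside the gate overlap.

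Members were found in all 4 lymphocyte subsets, which were called from all UMIs of a cell. CD8 T cells had Cd3 with Cd8a or Cd8b1, and CD4 T cells had Cd3 with Cd4. Neither showed Ncr1 or the other's marker. The other T cells were all remaining gated cells, among them those with both Cd3 and Ncr1. NK cells and ILC1 (Ncr1 detected, no Cd3) had thinned shares of 1.14, 4.35 and 2.17% in controls and 0.183, 0.406, 0.199 and 0.295% in treated samples. CD8 T cells had 2.42, 3.70 and 3.30% in controls and 0.773, 0.831, 0.382 and 0.847% in treated samples. Neither subset overlapped between groups, and both differences had an adjusted p = 0.0476 in the exact permutation test. CD4 T cells, with 0 to 2 thinned members in a sample, had 1.58% ± 1.43 and 0.406% ± 0.287, and the other T cells 1.72% ± 1.27 and 0.894% ± 0.353, each with an adjusted p = 0.229 in the exact permutation test. With all UMIs these shares were 7.08% ± 5.45 and 0.798% ± 0.157 for CD4 T cells and 6.13% ± 4.13 and 1.45% ± 0.347 for the other T cells, each with an adjusted p = 0.0286 in the exact permutation test. Among treated members 23.8% were NK cells and ILC1 and 56.7% other T cells, against 45.5% and 36.7% of treated cells with none of the 6 genes. Among control members these subsets made up 22.4% and 46.9%, against 21.5% and 45.3% of cells with none. Members were deeper than cells with none, as given above, and the part of depth in these percentages was not tested. The share of members was compared between subsets within samples in 6 pairs, of which 0 passed the exact sign-flip test after adjustment. The smallest p that this exact sign-flip test allows over 7 samples is 0.0156, so a single pair alone could not pass. These results therefore do not show that the subsets are alike. The smallest p found was 0.0313 (adjusted p = 0.188, exact sign-flip), for CD8 above CD4 T cells in 6 of 7 samples. Their mean difference was 0.841 percentage points ± 1.14 (SD). With all UMIs this mean difference turned to -0.570 points (p = 0.75, exact sign-flip), with CD8 above CD4 T cells in 5 of 7 samples.

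Within each sample, members were set against cells with none of the 6 genes, with raw UMIs summed per sample and state. Because the rule formed these groups, fitted log2 differences are given with their standard errors and no p-value. Of 8696 genes the paired edgeR fit placed 202 (2.32%) higher and 118 (1.36%) lower in members at an adjusted p under 0.05 with the rule, and with strict identity 334 of 7359 (4.54%) higher and 137 (1.86%) lower. Nothing is read from these counts about the members, which were selected on genes of this contrast. The strict fit kept samples with at least 10 strict members, a limit chosen after the data were seen so that control 3, with 14, stayed in.

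Antiviral effectors were higher in strict members for all 19 genes that passed the low-count filter, with a median log2 difference of 2.88 against -0.03 over all genes. Of the 26 listed, 7 did not pass that filter. It also admits genes that are high in members alone, and members were chosen by interferon-induced genes. The counts of higher genes here and in the interferon lists below are therefore a description. Mx1, a dynamin-like GTPase that traps viral ribonucleoproteins, stood at 145, 52.6 and 161 CPM in control and 234, 214, 156 and 234 CPM in treated members. Cells with none of the 6 genes had 9.11, 2.04 and 1.44 CPM in controls and 8.53, 7.88, 7.05 and 8.59 CPM in treated samples. It was higher in members in 7 of 7 samples, with a log2 difference of 4.74 ± 0.19 (SE). Oasl1 was higher by a log2 of 4.87 ± 0.36, Ifit2 by 3.80 ± 0.17, the exonuclease Isg20 by 3.73 ± 0.20, Rtp4 by 3.91 ± 0.21 and the giant ubiquitin ligase Rnf213 by 3.18 ± 0.15. Each of these was higher in members in every sample.

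Nucleic acid sensors were higher in strict members for 11 of 11 genes tested, with a median log2 difference of 2.36. Among them Ifih1, the sensor of long double-stranded RNA, differed by 3.48 ± 0.22 and Zbp1, which binds left-handed nucleic acids, by 3.07 ± 0.15. GBP and IRG GTPases, which coat the vacuoles of intracellular microbes and are classical targets of interferon-gamma, were higher for 12 of 12 genes, with a median of 2.30. The immunity-related GTPase Iigp1 differed by 4.40 ± 0.23, Igtp by 2.84 ± 0.15 and Gbp2 by 2.53 ± 0.18. Iigp1 varied widely among the controls, at 118, 15 and 457 CPM in members, while the treated members stood at 257, 219, 225 and 151 CPM. Summed over the list, GBP and IRG genes reached 1412, 759 and 2676 CPM in control members and 2750, 3094, 2409 and 2778 CPM in treated members, against 371 to 427 and 604 to 651 CPM in cells with none. Control 2 had the lowest sum with strict identity, but under the rule it had the highest of the controls, at 491 CPM against 337 and 393 CPM. PARP genes were higher for 6 of 6 and Schlafen and Ly6 genes for 7 of 7, with medians of 2.10 and 2.05. Among the latter Slfn5 differed by 4.20 ± 0.23. Herc6, the main ligase that attaches Isg15 in mice, was higher by 3.11 ± 0.20.

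Of 10 signal transduction genes with strict identity 7 were higher and 3 lower in members, with a median log2 difference of 0.31. Stat2 differed by 2.33 ± 0.20 (6 of 7 samples), Irf9 by 1.70 ± 0.14 and the kinase Jak2 by 0.93 ± 0.15. The interferon-gamma receptor chain Ifngr1 was lower in members in 7 of 7 samples, by -0.39 ± 0.08. With all members of the rule its difference was -0.57, and -0.05 when the same members were set against cells with none matched in sample, subset and depth. Irf7, the factor that amplifies type I interferon transcription, was higher by 2.14 ± 0.18, and the feedback inhibitor Socs1 by 1.40 ± 0.20. MHC class I presentation genes were higher for 18 of 18, with a smaller median of 0.68. The immunoproteasome subunit Psmb8 differed by 0.76 ± 0.09, the peptide transporter Tap1 by 0.78 ± 0.12 and B2m by 0.40 ± 0.06. Under the rule their list had a median of 0.39, with 15 genes higher and 3 lower.

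**Figure D4:**
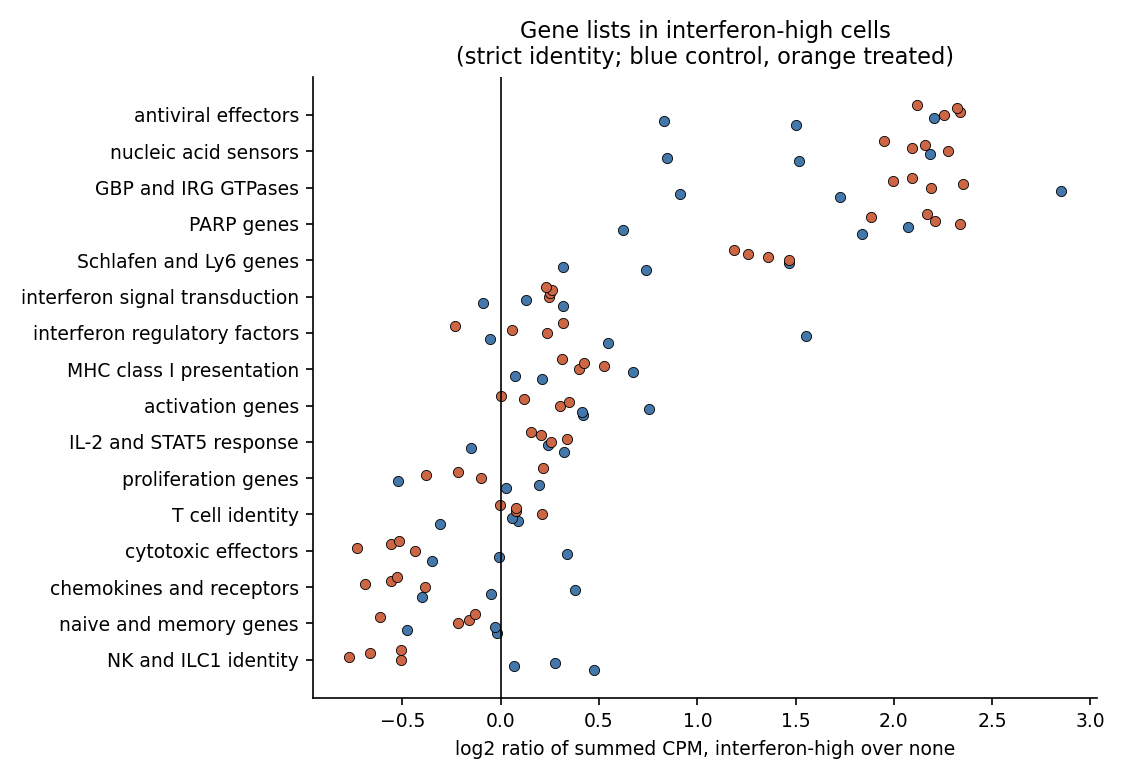
Log2 ratio of summed CPM in members over cells with none of the 6 genes, by gene list, with strict identity; each point is a sample (blue control, orange treated). Antiviral effectors, sensors, GBP and IRG genes and PARP genes lie above 0 in all 7 samples, and NK and ILC1 identity genes lie below 0 in the 4 treated samples and above it in the 3 controls.

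Transcripts of type I interferons were rare in these libraries. Ifnb1, the gene of interferon-beta, had 20, 17 and 18 UMIs over all passing barcodes of the 3 controls and 0 in each treated sample, and none of these UMIs lay in a T or NK cell. Ifna1, Ifna2, Ifna4 and Ifna5 had 1 UMI in all. Ifng had 1023 UMIs in controls, 703 of them in T and NK cells and 119 in members, and 20404 UMIs in treated samples, 17252 of them in T and NK cells and 324 in members. In strict members Ifng stood at 76.1, 259 and 202 CPM in controls and 478, 228, 294 and 153 CPM in treated samples, against 63.8, 71.3 and 69.8 CPM and 199.6, 156, 193 and 138 CPM in cells with none. It was higher in members in 7 of 7 samples, with a log2 difference of 0.90 ± 0.16 with strict identity. With all members of the rule the difference was 0.56 ± 0.23, higher in 6 of 7 samples and lower in control 1, and it was 1.48 against matched cells.

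Outside the interferon lists, Cxcl10, which encodes the chemokine that draws Cxcr3-bearing lymphocytes, showed the largest difference. It stood at 505, 1226 and 834 CPM in control and 528, 528, 298 and 658 CPM in treated members, against 34.8, 156 and 51.9 CPM and 9.48, 7.46, 8.93 and 5.14 CPM in cells with none. All members lay above all cells with none, with a log2 difference of 5.11 ± 0.34. Cxcl10 is itself induced by interferons, as are other genes of this group, among them Trim30d (2.67 ± 0.19), Ifi213 (2.59 ± 0.19), the nuclear body scaffold Pml (2.58 ± 0.20) and the helicase Helz2 (2.17 ± 0.18). Of the other chemokines, Xcl1, which attracts cross-presenting dendritic cells, was at 104, 692 and 296 CPM in control and 879, 599.8, 266 and 529 CPM in treated members. It exceeded the cells with none in 6 of 7 samples, by 1.15 ± 0.15 with strict identity, 0.67 under the rule and 0.96 against matched cells.

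**Figure D5:**
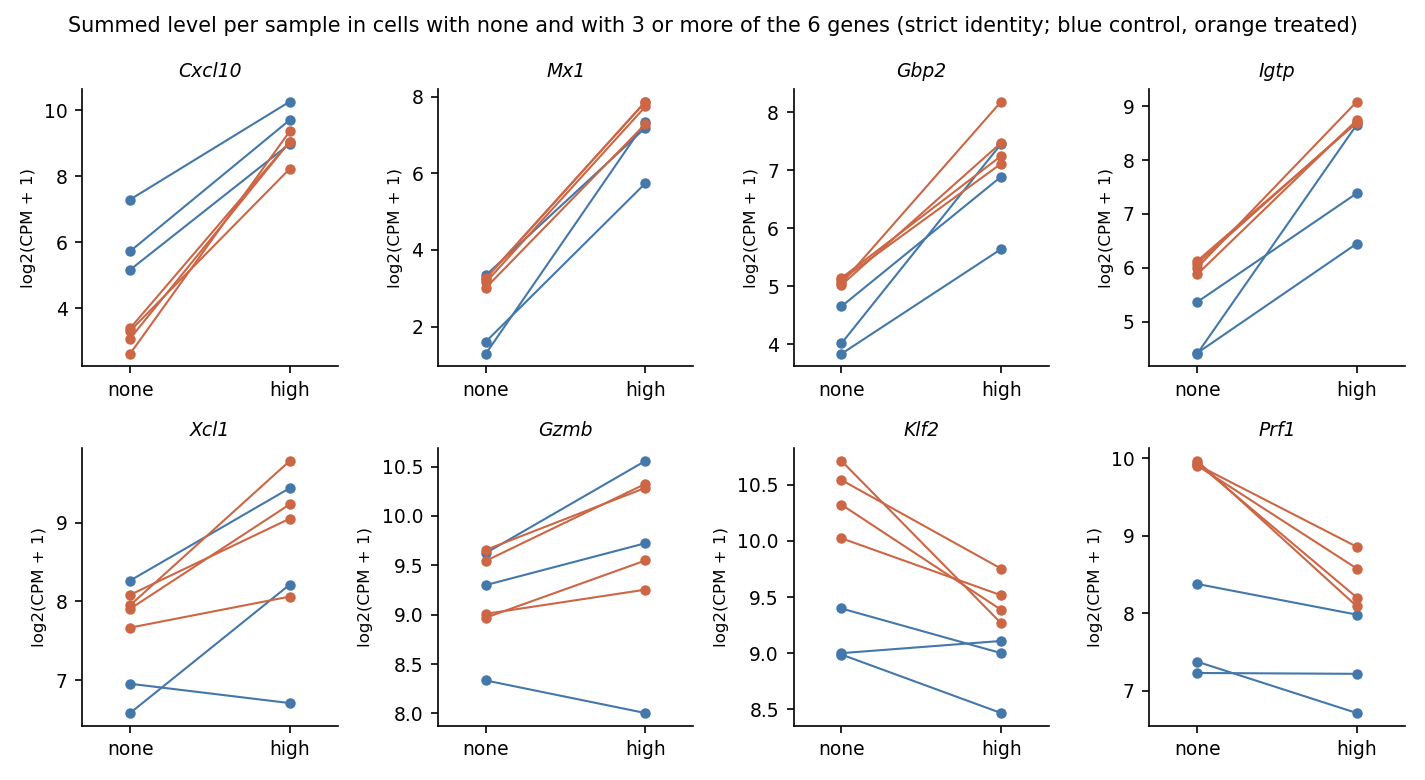
Level of 8 genes in cells with none of the 6 rule genes and in members, as log2(CPM + 1), with strict identity; each line joins both states of a sample (blue control, orange treated). Lines for Cxcl10, Mx1, Gbp2 and Igtp climb in every sample and those for Prf1 decline in every sample, by little in control 3.

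Cytotoxic effectors were mixed, with 8 genes higher and 9 lower of 17 in strict members and a median of -0.05. For all members of the rule 7 were higher and 10 lower, with a median of -0.40. Against matched cells 8 were higher and 6 lower of 14, with a median of 0.07. Perforin (Prf1), the pore-forming protein of killer cells, was at 104, 252 and 148 CPM in control and 381, 271, 294 and 463 CPM in treated members. Cells with none had 165, 332 and 149 CPM in controls and 959, 1000.2, 981 and 965 CPM in treated samples. Prf1 was lower in members in 7 of 7 samples, by -1.14 ± 0.15 with strict identity, -1.35 under the rule and -0.73 against matched cells. Gzma differed by -0.75 ± 0.14 and the chemokine Ccl5 by -0.54 ± 0.08, both lower in 6 of 7 samples, while Gzmb was higher in 6 of 7 by 0.54 ± 0.10. The death ligand Tnfsf10 (TRAIL) was higher in 7 of 7 samples, by 1.29 ± 0.15.

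Several genes of lymphocyte circulation and maturity were lower in members. Klf2, a factor that keeps T cells in circulation, differed by -0.65 ± 0.12, its target S1pr1, the exit receptor, by -0.66 ± 0.15, Lef1 by -0.71 ± 0.14 and Klrg1, a marker of terminally mature killer cells, by -1.28 ± 0.19. The chymase gene Cma1 was lower by -1.88 ± 0.18 and Spn (CD43) by -1.03 ± 0.11. With all members of the rule the differences were -0.70 for Klf2, -0.95 for S1pr1, -1.01 for Lef1, -1.48 for Klrg1, -1.96 for Cma1 and -1.27 for Spn. When the same members were set against cells matched in subset and depth, they were smaller, at -0.09 for Klf2, -0.51 for S1pr1, -0.63 for Lef1, -0.75 for Klrg1, -0.81 for Cma1 and -0.65 for Spn. Matching in depth was close in the treated samples and control 3. In control 1 matched cells summed to 479301 UMIs against 663905 in members, and in control 2 to 463965 against 555683. What remained of depth, and of composition inside a subset, was not tested. Over the naive and memory list 4 genes were higher and 8 lower with strict identity. NK and ILC1 identity genes were lower for 13 of 15, with a median of -0.29. For all members of the rule this median was -0.44, and -0.06 against matched cells. The groups went opposite ways with strict identity: the summed level was higher in members in 3 of 3 controls, at 3309, 5255 and 2918 CPM against 2381, 5020 and 2407 CPM in cells with none, and lower in 4 of 4 treated samples. T cell identity and proliferation genes showed medians of -0.02 and 0.01. For all members of the rule these medians were -0.36, with 17 of 18 T cell identity genes lower, and 0.15. Against matched cells they were -0.16 and -0.003. Among IL-2 and STAT5 response genes 11 were higher and 3 lower with strict identity, with a median of 0.24. For all members of the rule 6 were higher and 8 lower, with a median of -0.04. Against matched cells 12 were higher and 2 lower, with a median of 0.18. The survival kinase Pim2 differed by 1.43 ± 0.21 (7 of 7 samples) and the feedback gene Socs2 by 0.82 ± 0.21 (4 of 7). The early activation marker Cd69 was higher in 7 of 7 samples, by 0.69 ± 0.10. With all members of the rule it differed by 0.24, and by 0.49 against matched cells.

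The members of the treated samples were then compared with those of the controls, the question the IL-2/CD25 plasmid poses. Under the rule 1534 of 7022 genes (21.8%) rose and 1692 (24.1%) fell in treated members at an edgeR adjusted p under 0.05, and with strict identity 298 of 4053 (7.35%) rose and 487 (12%) fell. The sums of other cells' markers differed between the groups as given above, and their part in the rule's counts was not tested. Under the rule the 12 genes that fell most included Sprr1a, Ptges, Cdkn2a and the basophil protease gene Mcpt8, none of which passed the low-count filter with strict identity. Those that rose most included Kdr and Cdh5, genes of endothelial cells, which did not pass it either. The values below are with strict identity unless stated.

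Proliferation genes fell together. Of the 18 listed, 10 passed the low-count filter. All 10 fell, against 12% of all genes, with a median log2 change of -3.21 against 0.05 over all genes. That filter also admits genes that are high in the controls alone, so the count of 10 is partly set by it. Under the rule 17 of 18 fell, against 24.1% of all genes. Mki67, present in cycling cells, was at 602, 421 and 309 CPM in control members and 40.1, 4.76, 68.8 and 92.6 CPM in treated members. The groups lay far apart, and the change was -3.18 ± 0.37 (SE; edgeR adjusted p = 3.19e-05). Stmn1, a regulator of microtubules, changed by -3.79 ± 0.28 (edgeR adjusted p = 2.81e-07) and the chromatin protein Hmgb2 by -1.89 ± 0.18 (edgeR adjusted p = 5.81e-06). In cells with none of the 6 genes Mki67 was likewise at 470, 355 and 439 CPM in controls and 35.8, 34.2, 37.7 and 35.2 CPM in treated samples. Of 18 proliferation genes 0 passed the interaction test of edgeR with strict identity and 0 under the rule, where few of all genes passed either (0.409% and 0.14% with strict identity, 2.21% and 0.144% under the rule, in the positive and negative direction).

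IL-2 and STAT5 response genes rose for 5 of 13, with a median of 0.92, against 7.35% of all genes. Under the rule 12 of 14 rose, against 21.8% of all genes, and 13 of 15 T cell identity genes rose there too. The summed level of the IL-2 and STAT5 list was 1942 ± 145 CPM in control and 3812 ± 275 CPM in treated members (SD). In cells with none of the rule genes it was likewise higher in treated samples, at 3233 ± 213 CPM against 1790 ± 403 CPM in controls. Of 14 genes of this list, 1 passed the interaction test of edgeR with strict identity, with a larger difference in treated samples. Of all genes 0.409% did so. Pim1, a STAT5-induced kinase, was at 408, 312 and 256 CPM in control and 989, 947, 707 and 848 CPM in treated members. No treated sample reached down to a control, and the change was 1.23 ± 0.20 (edgeR adjusted p = 0.000511). Dusp5, a phosphatase of the ERK kinases, changed by 1.56 ± 0.30 (edgeR adjusted p = 0.00179) and Il2rb, the receptor chain of IL-2, by 0.59 (edgeR adjusted p = 0.0279). Satb1, a chromatin organiser of T cells, was at 222, 211 and 121 CPM in controls and 655, 676, 711 and 575 CPM in treated members, a change of 1.57 ± 0.21 (edgeR adjusted p = 9.53e-05). Itga1, an integrin of liver-resident lymphocytes, changed by 3.22 ± 0.50 (edgeR adjusted p = 0.000323), the cytokine receptor chain Il6st by 2.45 ± 0.52 (edgeR adjusted p = 0.00353) and the factor Maf by 2.64 ± 0.38 (edgeR adjusted p = 0.000162). The peptide transporter gene Slc15a2 had no UMI in control members and 60.4 ± 31.7 CPM in treated members (edgeR adjusted p = 0.00739). None of 14 cytotoxic effectors and none of 15 T cell identity genes passed with strict identity, where 7.35% of all genes rose and 12% fell. Under the rule 9 of 16 cytotoxic effectors and 13 of 15 T cell identity genes rose.

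Interferon-response genes rose in part. Members were admitted by interferon-induced genes, and strict members were deeper in controls (pooled median 5718.5 UMIs) than in treated samples (4466 UMIs). By the rule, members with exactly 3 of the genes made up 64.6% ± 8.34 in controls and 43.8% ± 4.44 in treated samples (SD). The part of this unequal selection in the changes below was not tested. With strict identity 5 of 20 antiviral effectors rose and 1 fell, 5 of 11 nucleic acid sensors rose, 4 of 12 GBP and IRG genes rose and 7 of 18 MHC class I genes rose while Psmb8 fell, against 7.35% and 12% of all genes. Herc6 stood at 201, 75.2 and 148 CPM in control and 465, 590.3, 367 and 448 CPM in treated members, a change of 1.65 ± 0.29 (edgeR adjusted p = 0.000777). Rnf213 changed by 1.33 ± 0.26 (edgeR adjusted p = 0.00179). In cells with none Rnf213 changed by 0.62 (edgeR adjusted p = 0.00422). Cxcl10 fell by 0.95 ± 0.28 on the log2 scale (edgeR adjusted p = 0.0237), with groups that overlap, while under the rule its change was 0.51 (edgeR adjusted p = 0.487).

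Several genes of myeloid cells fell in treated members, among them Chil3, a chitinase-like protein, at 339, 331 and 148 CPM in control and 3.34, 4.76, 4.59 and 2.44 CPM in treated members (log2 change -6.33 ± 0.41; edgeR adjusted p = 9.01e-08). Fn1, encoding fibronectin, was at 106 ± 34.3 and 2.30 ± 4.59 CPM, and Il1r2, a decoy receptor for interleukin-1, at 71.1 ± 34.4 and 0 CPM. Chil3 was similarly at 302 CPM in control and 3.20 CPM in treated cells with none, and barcodes outside the gate held 2606 CPM in controls and 149 CPM in treated samples. The neutrophil markers S100a8, S100a9 and Retnlg fell by 3.12, 2.82 and 3.53 on the log2 scale. The part of RNA from other cells in these changes was not tested.

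Last, the difference between members and cells with none was compared between the groups as an interaction term. Under the rule 230 of 10402 genes (2.21%) had a more positive difference in the treated samples and 15 (0.144%) a more negative one, and with strict identity these were 35 of 8556 (0.409%) and 12 (0.14%). Cxcl10 had the clearest change. Its difference was larger in the treated samples by 2.66 ± 0.28 on the log2 scale (edgeR adjusted p = 3.13e-07), while members averaged 855 CPM in controls and 503 CPM in treated samples and cells with none 80.8 and 7.75 CPM. The difference of the interferon-induced gene Ifi27l2a was larger by 1.58 ± 0.22 (edgeR adjusted p = 5.95e-05). Larger differences were also found for Herc6 by 1.58 ± 0.31 (edgeR adjusted p = 0.00637), Slfn5 by 1.62 ± 0.35 (edgeR adjusted p = 0.0185), Bst2, which tethers budding virus, by 1.27 ± 0.28 (edgeR adjusted p = 0.0185), and Rnf213 by 1.12 ± 0.25 (edgeR adjusted p = 0.0237). Bst2 did not pass under the rule (edgeR adjusted p = 0.0960). Antiviral effectors had 4 of 24 genes with a larger difference in treated samples and 0 with a smaller one. The 3-of-6 rule admitted members at unequal depth, with a pooled median of 5718.5 UMIs in strict control members and 4466 in strict treated members. By the rule, 64.6% of control members and 43.8% of treated members had exactly 3 of the genes (means over samples). The part of this unequal selection in the differences of interferon-induced genes was not tested.

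The difference of Cish, a STAT5-induced brake on cytokine receptors, was larger in the treated samples by 1.55 ± 0.36 (edgeR adjusted p = 0.0251). Its level was 96.9, 41.4 and 53.8 CPM in control members, near the 106, 66.2 and 77.8 CPM of their cells with none, and 147, 199.9, 151 and 105 CPM in treated members, above the 85.9, 55.6, 65.6 and 72.6 CPM of theirs. Of 15 NK and ILC1 identity genes, 3 had a more negative difference in the treated samples with strict identity and 1 under the rule. Of all genes 0.14% and 0.144% did. Among them Klra4, encoding the activating receptor Ly49D, was at 187, 301 and 188 CPM in control members against 141, 304 and 95.8 CPM in cells with none, and at 127, 71.4, 119 and 183 CPM in treated members against 380, 413, 403 and 410 CPM. Its difference was more negative in the treated samples by -1.84 ± 0.26 (edgeR adjusted p = 7.17e-05). NK cells and ILC1, called by detected genes at unequal depth, made up a smaller part of treated members than of treated cells with none. The part of that composition in the value, and of depth in both, was not tested. The immediate early genes Fos and Nr4a2 also differed, by -1.26 ± 0.18 (edgeR adjusted p = 6.76e-05) and -1.79 ± 0.31 (edgeR adjusted p = 0.00152). Under the rule neither passed, with edgeR adjusted p = 0.905 for Fos and 0.289 for Nr4a2.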

How the data were processed

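The authors deposited, per sample, a matrix of raw UMI counts per gene and barcode with 55357 features, whole numbers with no normalisation. Libraries were of the 10x 3′ v3.1 kind, per the labels' protocols. Cell Ranger 7.0.0 and bcl2fastq 5.0.1 appear in the submitters' processing notes. The genome build is not given in the sources used here. Samples were grouped by their labels, which give all 7 the same batch.

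Members and lists were chosen with earlier results of these data known. Barcodes were read with Python 3.11.15, numpy 2.4.6, scipy 1.17.1 and pandas 2.3.3. Scrublet scores (scanpy 1.11.5) marked the highest 6% of passing barcodes per sample as likely doublets, which were kept except in an alternative. Cells with at least 2000 UMIs were thinned to 2000 without replacement, which left out 39 to 82 T and NK cells per control and 122 to 328 per treated sample. Shares were compared by exact permutation over 35 assignments and subsets by exact sign-flips within samples. Raw counts were summed by sample and state, where a state had 20 cells or more, and tested in edgeR 4.0.16 under R 4.3.3 by quasi-likelihood, with TMM scaling, filterByExpr and Benjamini-Hochberg adjustment over all genes tested. The paired fits had the sample as a block. These fits were checked on simulated counts. CPM, counts scaled to a common total, was taken over the summed cells.

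The strict fits with at least 10 cells and the shares outside the gate were chosen after seeing the data. In the matched comparison, each member was set against a cell with none of the 6 genes of the same sample and subset and the nearest UMI total. Named genes are up to 12 per direction for treated against control and the 15 largest, plus up to 10 per direction outside the interferon lists, for members against none, at a mean of at least 20 CPM and the same direction in every sample or no overlap between groups; genes over 10 times higher outside the gate and unnamed gene models were not named, and members of lists serve as examples. Replicate numbers shared by the groups were not used as pairs in the main fits. Deviations of same-numbered samples from their group means correlated at 0.0203, 0.0974 and 0.0940 in members. These sums hold few cells per sample and also RNA of other cell types. They cannot decide whether the numbers pair samples. Alternatives included DESeq2 1.42.0, other scaling, filters, identity and depth. Figures were drawn with matplotlib 3.10.9. Results for an item withheld for evaluation are not reported here.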

Additional observations from a re-analysis of the deposited data

Results flagged for a closer look

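In 71 groups of 4 treated values, Dixon's criterion marked 4 in which the highest or lowest sample stood apart from the others, where chance alone marks about 1 group in 20. Treated 3 had the lowest thinned share of members among CD8 T cells, at 0.382%. Under the rule treated 4 stood apart in Iigp1 at 459.7 CPM, treated 2 in Il1r2 at 51.0 CPM and treated 3 in Itga1 at 241 CPM.

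Among the named genes, 19 had a difference between members and cells with none that itself differed between treated samples and controls under the rule, by edgeR's interaction test. Of all 10402 genes, 2.21% had a more positive and 0.144% a more negative difference in the treated samples under the rule. The named genes were picked from contrasts of these same data, so nothing is read from the count of 19. The part of the unequal depth at which members were admitted was not tested. On the log2 scale, treated minus control, the values were 3.38 for Cxcl10, 2.53 for Slfn5, 2.14 for Herc6, 2.03 for Rnf213, 1.86 for Ifi27l2a, 1.77 for Cish, 1.65 for Maf and -1.36 for Klra4. These 8 also passed with strict identity. The other 11 did not pass with strict identity, and their values under the rule were 3.19 for Oasl1, 3.18 for Il1r2, 2.79 for Il6st, 2.16 for Isg20, 2.04 for Stat2, 1.85 for Pml, 1.74 for Rtp4, 1.63 for Helz2, 1.62 for Trim30d, 1.49 for Pim2 and 1.16 for Tap1.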

How the results depend on the processing

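The thinned share of members was lower in the treated samples by 1.76 percentage points (a difference of -1.76). It was -0.459 with at least 4 of the 6 genes (adjusted p = 0.143, exact permutation) and -0.802 after thinning to 1000 UMIs (adjusted p = 0.0714, exact permutation). With all passing barcodes as the denominator it reversed to 0.198 (p = 0.0571, exact permutation), and with all UMIs from -4.78 to 0.265 (p = 0.171, exact permutation), since T and NK cells are a far larger part of the treated libraries. Leaving out a sample gave -2.13 to -1.09 for the thinned share and -5.89 to -2.97 for all UMIs, and no such design of 3 against 3 or 2 against 4 samples can reach an exact permutation p of 0.05. With the replicate number as a block the thinned difference was -1.75 (p = 0.25, the smallest that an exact sign-flip over 3 pairs allows), and the block gave 2884 genes changed between treated and control members against 3226 without it. The count of 3226 was 765 with strict identity, 785 with strict identity and at least 10 cells, and 567 with cells thinned to 2000 UMIs; leaving out a sample gave 2226 to 4173. Members against none gave 320 genes, and 501 with DESeq2, 890 with no low-count filter, 483 with strict identity, 157 against matched cells and 38 with no sample block; leaving out a sample gave 146 (treated 3) to 584 (control 1), with 166, 163 and 155 without treated 1, 2 and 4. The interaction gave 245 genes, and 530 with no filter, 43 with strict identity, 47 with strict identity and at least 10 cells, and 63 with thinned cells; leaving out a sample gave 108 (treated 3) to 287, with 131 and 152 without treated 1 and 4. The cause of these shifts was not tested. Of 6 subset pairs 0 passed under every alternative run, where a single pair alone could not pass after adjustment. For 71 differences of named genes, each a gene in a single comparison, 976 of 1084 alternative values kept their direction and side of the threshold, 57 kept the direction and lost the call, and 51 gained it. Depth limits the shares: a control sample held 10 to 15 thinned members.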
